A study of Mus musculus with 4 samples.

Results

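The genes described here are 10 integrin subunits and adhesion receptors of T cells, namely Itgb2, Itgal, Itga6, Itgav, Itgb3, Itga4, Itgb1, Itgb7, Cd44 and Icam1. They were chosen by gene symbol in the annotation of the array, whatever their values, and every feature (spot) of each gene was used. The annotation assigned 56 features to these 10 genes, out of 33709 annotated features in all. Of these 33653 carried a single gene symbol, for 19087 genes. Of the 56 features, 19 or 33.9% sat in array regions whose neighbouring spots often departed on 1 array from the other arrays, here called misread stretches, and 37 sat outside them, on 8 of the 10 genes.

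Integrins are receptors made of an alpha and a beta chain that hold a cell to other cells or to extracellular matrix. T cells use the alphaL beta2 integrin LFA-1, which binds ICAM1, to stay in contact with antigen-presenting cells, and the alpha4 integrins to enter inflamed tissue or the gut. A T cell receptor signal changes the shape of the integrins already on the surface through talin, kindlin, the GTPase Rap1 and adaptor proteins, so adhesion can change without a change in transcript level. CD44, a receptor for hyaluronan, is known as a marker of activated and memory T cells, and ICAM1 is itself induced on activated lymphocytes.

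The comparison asked which transcripts differ in effector T cells when both copies of the leptin receptor gene are mutated. The db/db group held 2 pools from mice homozygous for the db mutation of the leptin receptor gene, and the db/+ group held 2 pools from mice with 1 functional copy, which the labels call wild type. The labels give the db/db phenotype as leptin-deficient, whereas the title of the study names the receptor. All mice were C57BL/6, each pool held cells of 3 mice from 1 of 2 independent experiments, and the labels give no age or sex. CD4+CD25- T lymphocytes from spleen were stimulated with anti-CD3 and anti-CD28 for 12 h before RNA was taken, and no unstimulated cells are in the comparison. Each pool was read on its own one-colour array, and a pooled sample shows neither the spread between mice nor whether a lower signal means fewer cells of a type or less RNA per cell.

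In db/db pools 1 and 2 the raw intensities had medians of 102 and 176, against 254 and 151 in db/+ pools 1 and 2. Transcripts of the Y chromosome separated the groups completely, with Eif2s3y at least 79.1-fold and Kdm5d at least 24.7-fold higher in db/db pools than in db/+ pools, where both lay at background. The brightest feature of Xist, of the X chromosome, went the other way. It read 10.06 and 6.60 in db/db pools against 14.33 and 13.88 in db/+ pools. For every difference given here, genotype and the sex of the mice therefore cannot be told apart in the 4 pools. Features were called at an adjusted p below 0.05 in limma, once over all 33709 gene features (the full fit) and once over the 25467 gene features outside misread stretches (the reduced fit). Fold changes are db/db minus db/+ in log2 and are equal in both fits. With 2 pools against 2, an exact permutation test of a single gene cannot go below p = 0.333, so each call depends on the variance that limma shares across features.

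In the full fit 1 of the 56 features was called, a Cd44 feature lower in db/db on a misread stretch, and none was called higher (5 were higher and 3 lower at an unadjusted p below 0.05). Over all gene features 0.997% were called in that fit, and 0.418% lower in db/db, while 6578 of 33709 had an unadjusted p below 0.05. In the reduced fit 2 of 37 features were called, 1 of Itgb2 and 1 of Itga6, both higher in db/db, against 8.20% of all features called in either direction and 6.69% called higher. The 2 features are 5.41% of the 37, near the share of the whole array. Both db/db pools lay above both db/+ pools in 11 of the 37 features, or 29.7%, and below both in 6, or 16.2%, against 35.1% and 19.9% of all features outside misread stretches. Leaving out any 1 of the 4 arrays left no feature of the whole array called in either fit, at 5373 to 7565 features with an unadjusted p below 0.05 in the full fit.

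**Figure D1:**
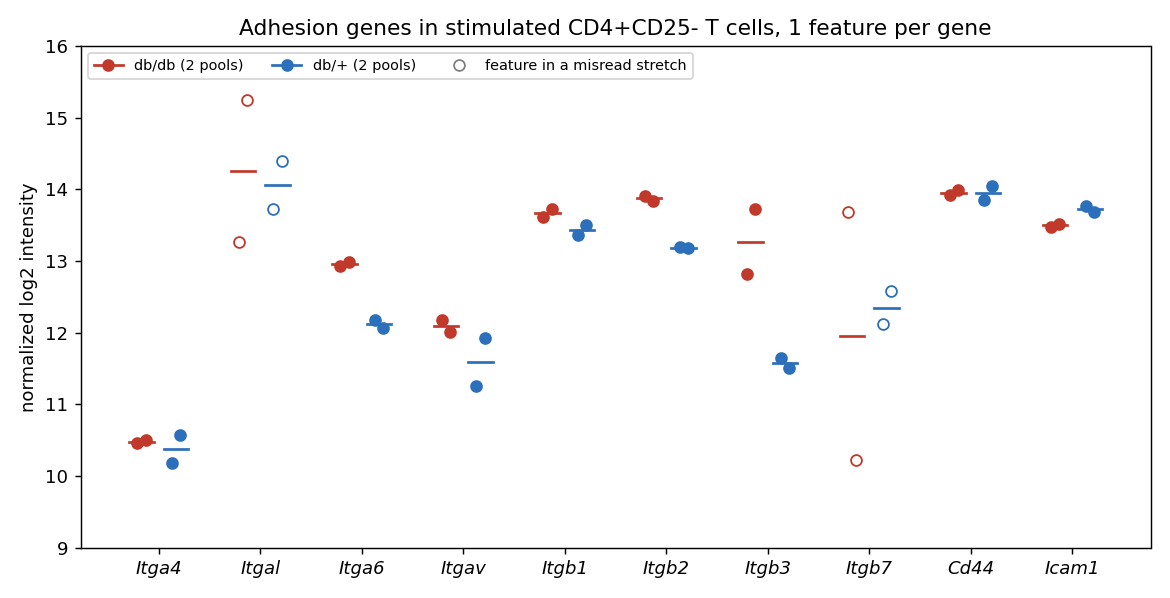
Normalized log2 intensity (vertical axis) of the brightest feature of each gene in the 2 db/db pools (red, left) and the 2 db/+ pools (blue, right), with group means as bars; open circles are genes with no feature outside misread stretches. Levels of different genes come from different probes and are not comparable. Itgb2 read 13.91 and 13.84 in db/db pools against 13.19 and 13.18 in db/+ pools, and the Cd44 pools overlap.

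Itgb2, the beta2 chain shared by LFA-1 and the myeloid integrins, had a single feature, outside misread stretches. It read 13.91 and 13.84 on the log2 scale in db/db pools 1 and 2, against 13.19 and 13.18 in db/+ pools 1 and 2. The groups did not overlap, and the pools of each group lay close together. The difference was 0.69 ± 0.0951 in log2 (SE in the reduced fit, 95% interval 0.44 to 0.94), a 1.61-fold higher level in db/db (limma adjusted p = 0.0754 in the full fit and 0.0304 in the reduced fit). Before normalization the raw intensities were 9920 and 18063 in db/db pools, against 13339 and 8931 in db/+ pools, and overlapped. The call in the reduced fit was lost with median scaling of the arrays (0.63 in log2, limma adjusted p = 0.201), where limma treated the spread of all features as equal. Like every call of the array, it was also lost without any 1 array, while the fold change stayed at 0.65 to 0.72 in log2.

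Itgal encodes the alphaL chain that pairs with beta2 in LFA-1, and both of its features lay in misread stretches. The brighter read 13.27 and 15.25 in db/db pools, against 13.73 and 14.39 in db/+ pools. The db/db pools lay on either side of both db/+ pools. Its fold change of 0.20 in log2 had an SE of 0.794 in the full fit (adjusted p = 0.915). The dimmer feature read 10.71 and 11.57 in db/db pools against 11.17 and 11.37 in db/+ pools, so no level of LFA-1's alpha chain could be set between the genotypes.

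The myeloid partners of beta2 were measured among the other integrin subunits. Itgam, the alphaM chain of neutrophils and macrophages, read 11.08 and 11.19 in db/db pools, against 9.17 and 9.88 in db/+ pools. This was a 3.05-fold higher level in db/db (limma adjusted p = 0.106 in the full fit and 0.0370 in the reduced fit). Itgax, the alphaX chain typical of dendritic cells, read 10.12 and 10.02 in db/db pools, against 10.54 and 11.41 in db/+ pools (log2 fold change -0.91, adjusted p = 0.291 and 0.159). Of the neutrophil marker list 12 of 14 genes outside misread stretches were above background. In the reduced fit 8 of the 14 were called higher in db/db, against 7.49% of all genes counted by 1 feature. The summed level of those 12, on the log2 scale, was 16.12 and 16.19 in db/db pools against 13.31 and 14.81 in db/+ pools. Their part in the Itgb2 and Itgam values was not tested.

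Itga6, a laminin-binding alpha chain that pairs with beta1 or beta4, had 3 features, all outside misread stretches. The brightest read 12.93 and 12.99 in db/db pools, against 12.17 and 12.07 in db/+ pools. The groups lay apart by far more than the pools within a group. The fold change was 0.84 ± 0.101 in log2 (SE in the reduced fit, 95% interval 0.57 to 1.11), 1.79-fold higher in db/db (limma adjusted p = 0.0680 in the full fit and 0.0249 in the reduced fit). The second feature by group separation read 9.20 and 9.24 in db/db pools against 8.87 and 8.41 in db/+ pools, a difference of 0.58 in log2 (adjusted p = 0.249 and 0.135).

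The remaining Itga6 feature, from the RefSeq transcript, did not follow the other 2. It read 9.05 and 11.30 in db/db pools, against 10.88 and 10.39 in db/+ pools, so that the db/db pools were both the lowest and the highest. With the median over the 3 features of each pool the gene's fold change turned to -0.39 in log2 (adjusted p = 0.806). The call of the brightest feature was also lost with median scaling (0.68 in log2, limma adjusted p = 0.141), where limma treated the spread of all features as equal. Like every call of the array, it was lost without any 1 array, while that feature's fold change stayed at 0.79 to 0.89 in log2.

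Itgb3, the beta3 chain that pairs with alphaV in the vitronectin receptor and with the alphaIIb chain in platelets, had 2 features. The brighter, assigned through a cDNA clone accession, read 12.82 and 13.72 in db/db pools against 11.65 and 11.51 in db/+ pools. The groups did not overlap, but the db/db pools lay far further apart than the db/+ pools. The fold change was 1.69 ± 0.317 in log2 (SE in the reduced fit, 95% interval 0.85 to 2.53), or 3.22-fold, and did not pass in either fit (limma adjusted p = 0.134 and 0.0503). Without db/db pool 2 it was 1.24, and without db/db pool 1 it was 2.14. The feature of the RefSeq transcript was dim and read 8.33 and 8.49 in db/db pools against 8.13 and 7.77 in db/+ pools, a difference of 0.46 in log2 (adjusted p = 0.292 and 0.176).

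Itgav, the alphaV chain, had 6 features and no call. Its brightest feature read 12.18 and 12.01 in db/db pools, against 11.25 and 11.92 in db/+ pools (log2 fold change 0.51, 95% interval -0.15 to 1.16, limma adjusted p = 0.434 and 0.303). A second feature above background read 9.66 and 9.84 in db/db pools against 9.92 and 8.60 in db/+ pools, and the groups overlapped. Of the other 4 features 2 were at background in both groups outside misread stretches, and 2 lay in misread stretches near background with fold changes of -0.51 and -0.45. Of the platelet marker list 6 of 8 genes outside misread stretches were at background in both groups, among them Itga2b, the alphaIIb partner of beta3. The 2 above it were Pf4, which read 12.03 and 11.59 in db/db pools against 10.83 and 11.50 in db/+ pools, and Ppbp, with 9.05 and 8.86 against 7.63 and 8.55. Their part in the Itgb3 values was not tested.

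**Figure D2:**
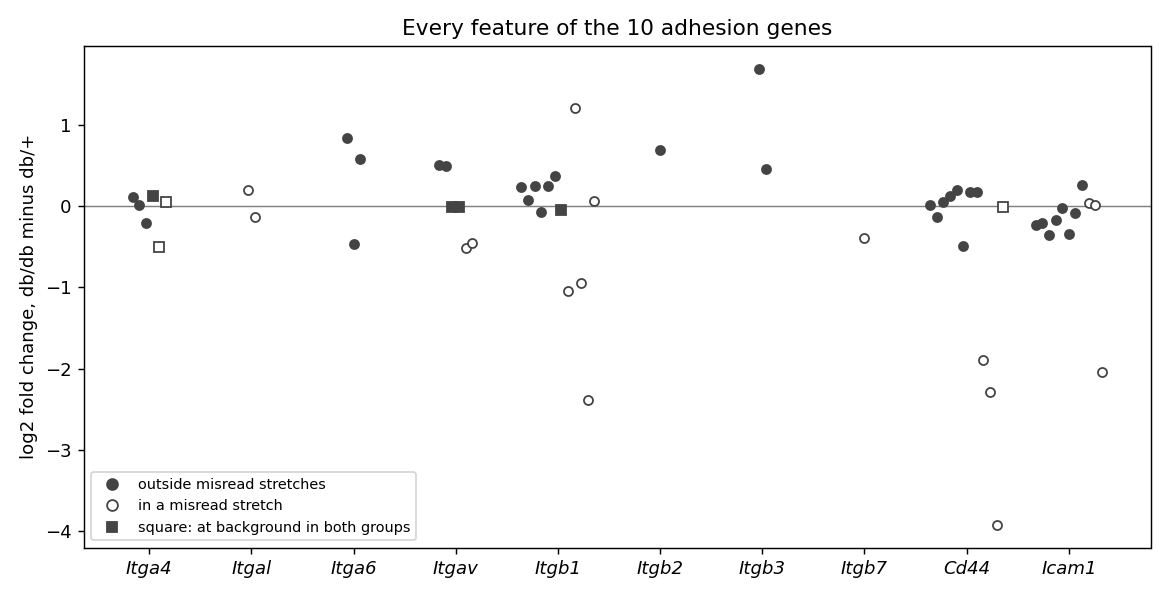
Log2 fold change, db/db minus db/+ (vertical axis), of each of the 56 features by gene; filled symbols lie outside misread stretches, open ones inside, and squares are at background in both groups. Outside misread stretches the values of Cd44 lie between -0.49 and 0.20, while inside them 3 features fall to between -3.92 and -1.89.

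Itga4, the alpha4 chain of the integrins that bind VCAM1 and MAdCAM1, had 6 features. In the 3 above background the pools of the genotypes overlapped. Its brightest feature read 10.46 and 10.50 in db/db pools, against 10.18 and 10.57 in db/+ pools (log2 fold change 0.11, 95% interval -0.32 to 0.53, limma adjusted p = 0.781 and 0.760). Its 2 other features above background outside misread stretches differed by 0.02 and -0.21. At background in both groups were 1 feature outside misread stretches (0.13) and 2 inside them. Those 2 differed by -0.50 and 0.05, without overlap of the pools. The direction of the brightest feature turned with median scaling and cyclic loess, as given with the processing alternatives.

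Itgb1, the beta1 chain of the alpha4 beta1 and alpha6 beta1 receptors, had 12 features. The 6 above background outside misread stretches all carried the same RefSeq accession and read between 13.26 and 13.73 in db/db pools, against 13.01 to 13.62 in db/+ pools. The brightest read 13.61 and 13.73 in db/db pools against 13.36 and 13.50 in db/+ pools (log2 fold change 0.24, 95% interval -0.06 to 0.53, adjusted p = 0.367 and 0.287 in limma). The fold changes of the 6 features ran from -0.07 to 0.37 with a median of 0.24, 5 of them positive and none called. These spots were read on the same 4 arrays and are not replicates. The fold changes of 5 features in misread stretches ran from -2.38 to 1.21.

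Itgb7, the beta7 chain that pairs with alpha4 in gut homing, had 1 feature, in a misread stretch. It read 13.69 and 10.23 in db/db pools, against 12.12 and 12.58 in db/+ pools. The db/db pools lay on either side of the db/+ pools, more than 3 log2 units apart (log2 fold change -0.39, SE 1.33, limma adjusted p = 0.904 in the full fit). Whether the beta chain of the alpha4 beta7 receptor differed was therefore not measurable here.

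Cd44 had 12 features, of which 8 lay outside misread stretches. The brightest of these read 13.92 and 13.99 in db/db pools against 13.85 and 14.04 in db/+ pools. The pools interleave, with a log2 fold change of 0.01 (95% interval -0.30 to 0.31, limma adjusted p = 0.983 in both fits). Over the 8 features the fold changes ran from -0.49 to 0.20 with a median of 0.09, and the median over features in each pool was 13.63 and 13.67 in db/db pools against 13.49 and 13.81 in db/+ pools.

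The Cd44 feature called in the full fit read 10.45 and 9.71 in db/db pools, against 13.90 and 14.08 in db/+ pools. Taken alone it was 15.1-fold lower in db/db (limma adjusted p = 0.0480 in the full fit). It lay in a misread stretch and carried the same accession as the 8 features outside, none of which differed by more than 0.49 in log2. With the authors' own values or cyclic loess it was not called. A second Cd44 feature dropped to 9.09 in db/db pool 2 alone, beside 13.69 in db/db pool 1, and another dropped to 10.16 in db/db pool 1 alone, beside 13.90 in db/db pool 2.

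**Figure D3:**
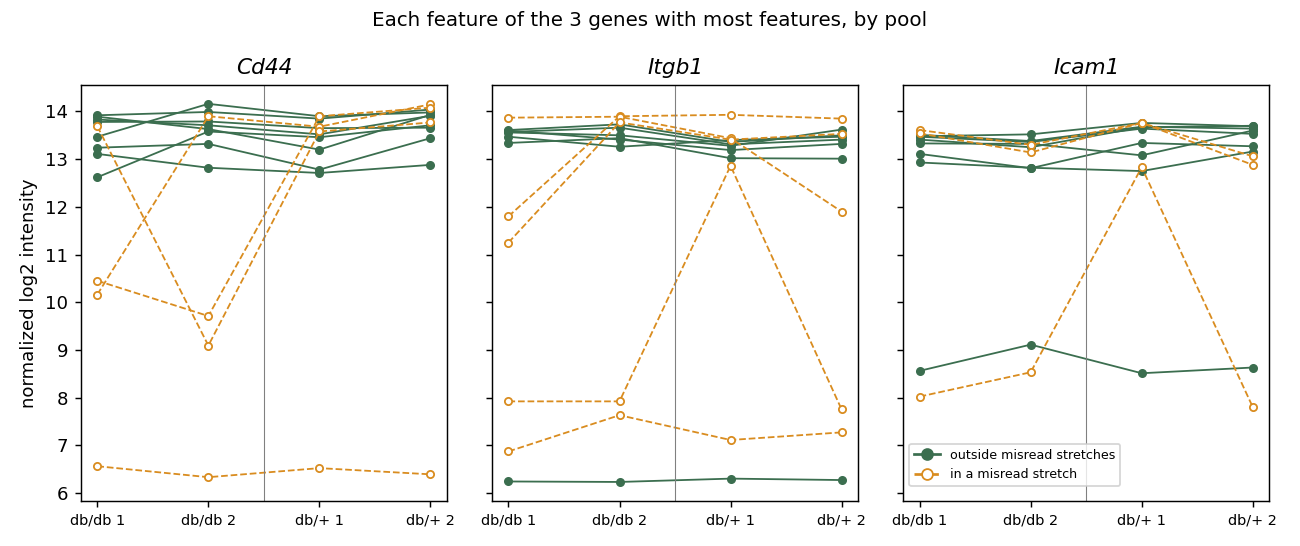
Normalized log2 intensity (vertical axis) of every feature of Cd44, Itgb1 and Icam1 in db/db pools 1 and 2 and db/+ pools 1 and 2 (horizontal axis); 1 line is 1 feature, solid outside misread stretches and dashed inside. Solid lines of bright features lie between 12.62 and 14.16 in every pool, while several dashed lines change by more than 2 between pools, such as the Cd44 feature at 13.69 and 9.09 in db/db pools 1 and 2.

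Icam1, the ligand of LFA-1 on the partner cell and on T cells themselves, had 8 features outside misread stretches. The brightest read 13.48 and 13.52 in db/db pools, against 13.76 and 13.69 in db/+ pools. Both db/db pools lay below both db/+ pools, by a log2 fold change of -0.23 (95% interval -0.48 to 0.03, limma adjusted p = 0.298 and 0.243). In 7 of the 8 features the value was lower in db/db, with fold changes from -0.35 to -0.02, and in 5 of them the pools did not overlap. None was called, the smallest adjusted p being 0.133 in the reduced fit, and the spots share their arrays and, but for 1, their accession. The exception, the dim feature of the RefSeq transcript, read 8.56 and 9.11 in db/db pools against 8.51 and 8.63 in db/+ pools.

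Features of Icam1 and Itgb1 on the same scan line showed the same departure. On that line Icam1 read 8.02 and 8.53 in db/db pools against 12.83 and 7.80 in db/+ pools, and Itgb1 read 7.92 and 7.92 in db/db pools against 12.86 and 7.75 in db/+ pools. In both genes only db/+ pool 1 lay near the level of the gene's other bright features.

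RefSeq promoter windows of 300 bases on build GRCm38.p6 were at hand for 6 of the 10 genes (Itga4, Itgav, Itgb1, Itgb7, Cd44 and Icam1), and those of Itgb1 and Icam1 are shown because their features pointed to opposite, uncalled differences. Each runs 5′ to 3′ on the plus strand, from chr8:128685404-128685703 for Itgb1 and chr9:21015690-21015989 for Icam1. Capitals mark matches, on either strand, to GGAANTTCC, TATAAA or GGGCGG, the letters of an NF-kB-like site, a TATA box and a GC box, with no overlap between them.
Itgb1: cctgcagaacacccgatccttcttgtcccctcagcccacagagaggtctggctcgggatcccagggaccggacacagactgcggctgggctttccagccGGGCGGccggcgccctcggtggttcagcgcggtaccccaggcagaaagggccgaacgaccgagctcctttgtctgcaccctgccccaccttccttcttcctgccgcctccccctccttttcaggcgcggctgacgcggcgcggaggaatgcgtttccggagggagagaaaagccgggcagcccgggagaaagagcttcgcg
Icam1: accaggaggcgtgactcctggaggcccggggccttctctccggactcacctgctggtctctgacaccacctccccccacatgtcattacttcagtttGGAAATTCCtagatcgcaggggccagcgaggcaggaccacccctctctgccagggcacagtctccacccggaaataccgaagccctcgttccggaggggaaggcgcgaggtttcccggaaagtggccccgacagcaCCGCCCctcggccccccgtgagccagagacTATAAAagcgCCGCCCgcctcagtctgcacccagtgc
The Icam1 window alone among the 6 held TATAAA, starting 14 bases after the annotated start. It alone also held GGAANTTCC, as GGAAATTCC starting 153 bases before the annotated start. NF-kB binding to a site of this kind is known from the human gene. Of all 32851 promoter windows 0.928% held GGAANTTCC, 13.6% TATAAA and 35.7% GGGCGG, which was found in Itga4, Itgav, Itgb1, Cd44 and Icam1. A match is a description of the letters and shows no binding in these cells.

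Some genes that act with integrins inside the cell were higher in db/db. Of 37 integrin activation and adaptor genes 30 had a feature outside misread stretches, and 9 of these were called higher and none lower in the reduced fit, against 7.49% higher and 1.57% lower of all 16145 genes counted by 1 feature. None of the 36 with any feature was called in the full fit, where 0.838% of all genes were. At an unadjusted p below 0.05 stood 13 of the 36 genes, and 6578 of all 33709 gene features. The median log2 fold change of the 30 genes was 0.31, against 0.05 over all genes outside misread stretches, and 0.37 over the 8 members by their brightest feature. Over all 37 member features the median was 0.08, against 0.04 over all features outside misread stretches. The genes of this list were chosen with earlier results of these data known, and no call held when any 1 array was left out.

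Skap1, an adaptor that links the T cell receptor to LFA-1, read 13.49 and 13.41 in db/db pools against 12.39 and 12.53 in db/+ pools. It was 1.98-fold higher (limma adjusted p = 0.0639 in the full fit and 0.0216 in the reduced fit). Skap2, its relative in other leukocytes, was 2.07-fold higher on its brightest feature (adjusted p = 0.0545 and 0.0184), with 1 of its 3 features called. Sipa1, which switches Rap1 off, read 13.27 and 13.40 in db/db pools against 11.79 and 12.06 in db/+ pools, and was 2.66-fold higher on its brightest feature (adjusted p = 0.0621 and 0.0190), with both features called in the reduced fit.

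The other 6 calls are named after their values were seen. Fyb, the adaptor ADAP that binds Skap1, read 14.51 and 14.16 in db/db pools against 12.07 and 12.62 in db/+ pools, a 3.99-fold higher level (limma adjusted p = 0.0776 and 0.0238). Tln1, the talin that binds integrin beta tails, was 1.60-fold higher (adjusted p = 0.109 and 0.0456), and Vcl, the vinculin that ties talin to actin, 1.61-fold (0.113 and 0.0471). Cytip, which binds cytohesin and is known to limit LFA-1 adhesion, was 2.60-fold higher (0.119 and 0.0430), and Flna, filamin A, 2.17-fold (0.0922 and 0.0320). Tln2 was called at background in both groups. Outside misread stretches both features of Fyb and Tln1 were called, 2 of 3 of Cytip, 1 of 3 of Flna and Tln2, and 1 of 2 of Vcl. The 9 thus held genes known to promote adhesion and genes known to restrain it.

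**Figure D4:**
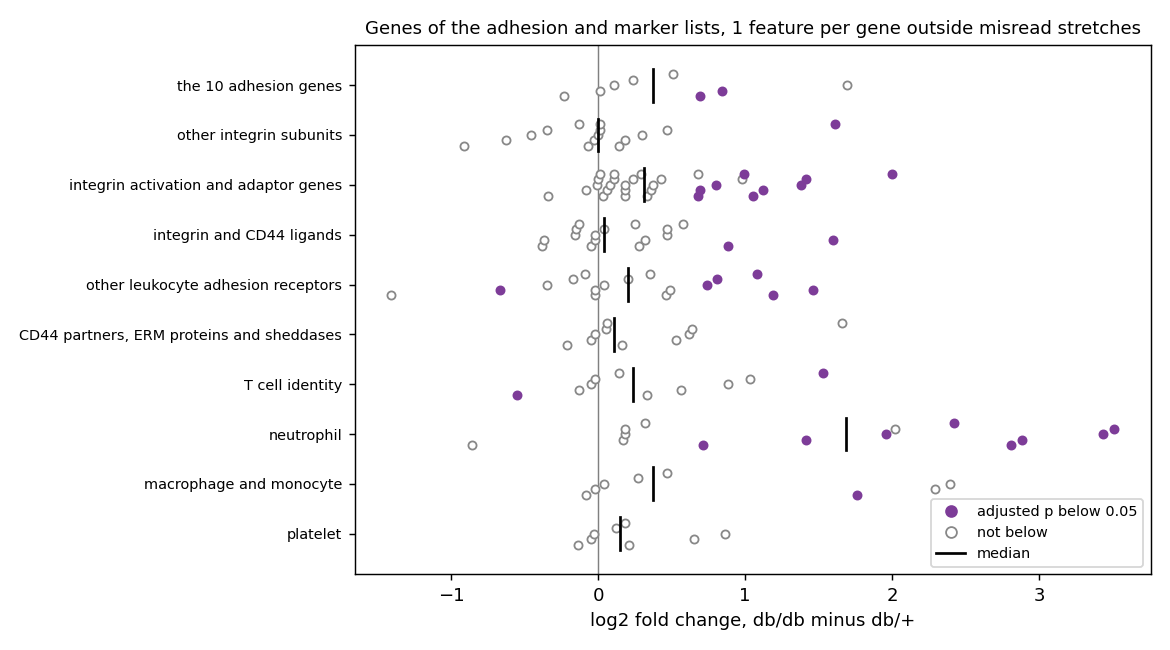
Log2 fold change, db/db minus db/+ (horizontal axis), of 1 feature per gene outside misread stretches in each list (rows); purple points have an adjusted p below 0.05 in the reduced fit, and black bars are medians. The 8 adhesion genes with such a feature have a median of 0.37 (0.08 over all their 37 features), the 30 activation and adaptor genes 0.31 and the 14 neutrophil markers 1.69.

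Among the other integrin subunits, 1 of 15 genes outside misread stretches was called higher in the reduced fit, Itgam above, and none lower, near the 7.49% of all genes called higher, which is the background of the following lists too. Itga5, the fibronectin receptor alpha chain, read 8.15 and 8.25 in db/db pools against 7.82 and 7.97 in db/+ pools (limma adjusted p = 0.272 and 0.188). At background in both groups stood 8 of the 15, namely Itga1, Itga2b, Itga7, Itga8, Itga9, Itgb4, Itgb5 and Itgb6. The median log2 fold change of the 15 was 0.00.

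Of 17 other leukocyte adhesion receptors outside misread stretches 5 were called higher and 1 lower in the reduced fit. Selplg, the selectin ligand PSGL-1, read 13.57 and 13.56 in db/db pools against 12.01 and 12.20 in db/+ pools. It was 2.76-fold higher and passed in both fits (limma adjusted p = 0.0457 and 0.0156), although 1 of its 2 features was called. Cd48, the ligand of CD2 and 2B4, was 2.12-fold higher on its brightest feature (adjusted p = 0.0676 and 0.0223), with both features called in the reduced fit. Slamf1, a homophilic receptor of activated T cells, read 12.93 and 13.00 in db/db pools against 13.63 and 13.65 in db/+ pools, a 1.59-fold lower level (0.0772 and 0.0315). The other 3, Cd47, Cd99l2 and Pecam1, were 1.67-fold, 1.76-fold and 2.28-fold higher on their brightest features and are named after their values were seen. Outside misread stretches 1 of 4 Cd47 features, 1 of 3 Cd99l2 features and 5 of 8 Pecam1 features were called.

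Of 17 ligand genes outside misread stretches 2 were called higher in the reduced fit. Lama5, a laminin chain, was 3.04-fold higher (limma adjusted p = 0.0687 and 0.0212) and F11r, the junctional molecule JAM-A that LFA-1 can bind, 1.83-fold (0.0985 and 0.0371). The brightest feature of Tgfb1, whose latent form alphaV integrins bind, was not called (log2 fold change 0.47, 0.233 and 0.132), while 2 of its 8 features outside misread stretches were. The ligands Madcam1, Fn1 and Thbs1 were at background in both groups. None of 10 genes that act with CD44 was called by limma in either fit (2 had an unadjusted p below 0.05 in the full fit). Ezr and Msn, which anchor CD44 to actin, differed by 0.62 (adjusted p = 0.124 and 0.0552) and 0.64 (0.212 and 0.107), and Cd74 by 1.66 (0.281 and 0.146).

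The T cell identity list was above background throughout its 10 genes outside misread stretches, with a summed level on the log2 scale of 17.28 and 17.29 in db/db pools against 16.90 and 17.10 in db/+ pools. In the reduced fit Thy1 was called 2.89-fold higher (limma adjusted p = 0.0627 and 0.0188) and Zap70 1.46-fold lower (0.101 and 0.0476), while Cd3d differed by 0.88 (0.135 and 0.0554). Cd5 lay in a misread stretch and was called lower in the full fit. Cd8a marks T cells that the purification was meant to remove, and read 13.32 and 13.27 in db/db pools against 11.54 and 11.99 in db/+ pools (adjusted p = 0.0751 and 0.0236). In the naive T cell list 2 of 7 genes were called higher in the reduced fit, Il7r (2.65-fold, 1 of 3 features called) and S1pr1 (3.03-fold, its single feature), and Foxp1 lower (1.59-fold, 1 of 2).

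Markers of cells other than T cells also differed with genotype. Of the neutrophil list Ltf was 10.8-fold, Lcn2 7.01-fold, Ngp at least 7.50-fold and Mmp9 at least 2.55-fold higher in db/db, called in both fits. Called higher in the reduced fit only were S100a9 (7.37-fold), S100a8 (5.35-fold), Csf3r (2.66-fold) and Prtn3 (at least 1.08-fold). Camp (2.02 in log2), Retnlg (0.32), Ctsg (0.18) and Mpo (-0.86) were called in neither fit. Ctsg and Mpo were highest in db/+ pool 2, at 12.95 and 12.47. Cxcr2 and Fcnb were at background in both groups, and Elane and Mmp8 lay in misread stretches. Of the B cell list 4 of 14 genes were called higher in the reduced fit. These were Cd22 (at least 1.91-fold), Bank1 (2.42-fold), Ebf1 (1.84-fold) and Cd79a (1.58-fold), with 1 of 2 features called for Cd22 and Bank1. Not called were Blnk (0.92 in log2), Ms4a1 (0.82), Cd72 (0.45), Cd79b (0.22), Fcer2a (0.17), Fcrla (0.06) and Vpreb3 (0.04). Pax5, Blk and Cr2 were at background in both groups. In the macrophage and monocyte list 1 of 8 genes was called higher in the reduced fit, Adgre1 (3.39-fold, 1 of 2 features called). The brightest features of Lyz2 (2.39 in log2, with 1 of 2 features called) and Lyz1 (2.29) were not called. Ccr2 (0.04) and C1qc (-0.02) were not called either, and Mrc1, Marco and C1qb were at background in both groups. The summed level of the 5 genes above background was 14.91 and 14.85 in db/db pools against 12.30 and 13.52 in db/+ pools. No gene of the dendritic cell, platelet or erythroid lists was called by limma in either fit. Of them 3, 0 and 1 had an unadjusted p below 0.05 in the full fit. In the CD8 and NK cell list 2 of 9 genes were called higher in the reduced fit, Cd8a and Cd8b1 (1.81-fold). Not called were Klrd1 (0.89 in log2), Klrk1 (0.84), Prf1 (0.42), Gzmk (0.30), Nkg7 (0.29), Ncr1 (-0.43) and Klrb1c (-0.86). Eomes lay in a misread stretch. In the endothelial and stromal list only Pecam1 was called, and 6 of its 11 genes were at background. What these markers contribute to the adhesion gene values was not tested.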

How the data were processed

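One-colour arrays of 4 pools were analysed. The authors deposited raw median foreground intensities on a linear scale, per the file headers, which name neither a background step nor a normalization, and a table of log2 values. That table matched log2 of the raw intensity after quantile normalization to within 5e-09. Limma is the tool that the submitters' processing notes name, and further upstream steps are not given in the sources used here.

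Background correction by normexp (offset 50), log2 and quantile normalization used limma 3.58.1 in R 4.3.3. Each annotated feature was tested (lmFit, eBayes, two-sided, Benjamini-Hochberg, threshold 0.05). The tables name no genes. Row numbers were turned into annotated features by a grid layout inferred from these data, under which features of an accession differed by a median of 0.138 in log2, against 1.1 when the row number itself served as the feature. All gene names depend on this layout.

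Misread stretches were 40 of 170 scan lines with over 5% of spots on any array over 2 in log2 away from the other arrays' median, and runs of 15 spots in which 3 or more did so on an array. They held 24.5% of the gene features. Spots were thus removed for departing between arrays, and a large genotype difference can itself mark a spot. The reduced fit had more degrees of freedom (4.54, against 3.47 in the full fit) and fewer tests, while the SE of Itgb2 and Itga6 was slightly larger in it. Arrays were not normalized again without them.

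Each gene is represented by the brightest of its features outside misread stretches, or of all its features where none lies outside. Background was below the median of 7.55 over gene features in both pools of a group, and folds over such a group are lower bounds against that level. Replicate spots were not averaged, since the annotation gives no probe identity. Besides the members, up to 3 genes per list with the smallest unadjusted p were named, among genes whose brightest feature outside misread stretches was above background in at least 1 group. Other genes named were called, at background or in a misread stretch, and were named after their values were seen. Not every such gene is named. Xist, and genes without a call in the neutrophil, B cell, macrophage, and CD8 and NK cell lists, were named likewise. The members, lists and rules were chosen with earlier results of these data known. The pools came from 2 experiments, which the labels do not tie to replicate numbers, so no block was used. Pools of the same number did not deviate together (correlation of deviations -0.0334). The number of arrays limits the precision. Scripts were tested on simulated data. Genes of the lists without an annotated feature were not analysed here.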

Additional observations from a re-analysis of the deposited data

How the results depend on the processing

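Limits first: 4 pools set the precision, Itgal and Itgb7 had no feature outside misread stretches, and features of a gene share their arrays. Over all gene features limma called 195 higher and 141 lower in db/db. Median scaling gave 126 higher and 270 lower, cyclic loess 58 and 91, leaving out dim features 68 and 126, and an intensity trend 54 and 119. Leaving out misread stretches gave 1705 higher and 384 lower. With those stretches left out, alternatives chosen after seeing the data gave 1267 and 655 (median scaling), 1146 and 551 (cyclic loess) and 1530 and 354 (authors' deposited log2 values). Leaving out each array in turn gave 0 to 0 calls in either direction, also outside misread stretches, where 4208 to 7057 features had an unadjusted p below 0.05. A replicate block gave 0 higher and 0 lower (5146 features at an unadjusted p below 0.05), and 398 higher and 47 lower with misread stretches left out, where Itga6 and Itgb2 were no longer called (adjusted p = 0.0652 and 0.0754). Of the features of the 10 genes, 0 were called higher and 1 lower. With misread stretches left out 2 were higher, also with cyclic loess or the authors' values, and 1, of Itgb3, with median scaling. The lower call became 0 with the authors' values, cyclic loess, the replicate block, misread stretches left out under every scaling, and without any 1 array. With misread stretches left out Itga6 passed at 0.84, also at 0.69 with cyclic loess and 0.84 with the authors' values. Itgb2 passed likewise at 0.69, 0.63 and 0.69, and at 0.69 with the median over features. Itgb3 passed with median scaling at 1.53 (adjusted p = 4.58e-06), where limma treated the spread of all features as equal. The Cd44 fold change turned to -0.01 with median scaling, -0.02 with cyclic loess, 0.00 with the median over features, -0.03 without db/db replicate 2 and -0.09 without db/+ replicate 1, the same with misread stretches left out. Itga4 turned to -0.15, -0.13 and -0.09 under the same scalings and the median over features, and to -0.09 without db/+ replicate 1. Itga6 turned to -0.39 with the median over features. Itgal turned without db/db replicate 2 or db/+ replicate 1 (-0.13), and Itgb7 without db/db replicate 2. Leaving out 1 array in turn, the fold change ran from -0.09 to 0.10 for Cd44, -0.09 to 0.30 for Itga4, -0.78 to 1.19 for Itgal and -2.12 to 1.34 for Itgb7. The cause of these changes was not tested. Of 180 values of the 10 genes under alternatives, 152 kept direction and side of the threshold, 8 passed it newly and 20 turned. This tally is no measure of robustness. Several alternatives reuse the normalized values of the full fit, so their fold changes equal those of that fit by construction. Fits without 1 array called no feature at all, so no value could pass the threshold in them.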
